A study of Mus musculus with 16 samples.

Results

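The Sprouty and Spred genes are a family of 7 in the mouse, *Spry1*, *Spry2*, *Spry3*, *Spry4*, *Spred1*, *Spred2* and *Spred3*. They were chosen by name, and each was represented by the brightest probe set annotated with its symbol alone. All 7 were measured, among 19938 genes of the array used at P9 and P14 and among 22180 genes of the array used at P21. *Spred2* had 2 such probe sets on the first array and every other member had 1.

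Sprouty and Spred proteins restrain signalling from growth factor receptors through Ras, Raf, MEK and ERK. Many of their genes are themselves transcribed in response to ERK, so that they close a negative feedback loop. Sprouty proteins are recruited to the membrane after receptor activation and bind adaptors such as Grb2 and the ubiquitin ligase Cbl. Spred proteins carry an EVH1 domain at one end and the cysteine-rich Sprouty domain at the other, and Spred1 brings the Ras GTPase-activating protein neurofibromin, the product of *Nf1*, to the membrane. Loss of SPRED1 in people causes Legius syndrome, which belongs to the RASopathies.

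The samples were cortical RNA from mice of mixed genetic background, labelled "sensoricortex" and called dorsal cortices in the methods, with 1 Affymetrix gene array per mouse. The loss-of-function mutants were *Map2k1* loxp/loxp;*Map2k2*-/-;*Neurod6-Cre* mice (referred to as *Map2k1/2;Neurod6-Cre*), which lack the kinases MEK1 and MEK2 in excitatory neurons of the cortex from the time these become post-mitotic, and which lack MEK2 in every cell. They were compared with controls at P9 (mutants 1 and 4 against controls 2 and 3) and at P14 (mutants 1, 9 and 11 against controls 2, 10 and 12). The P9 and P14 mice were different animals. The gain-of-function mutants were *ca-Map2k1;Neurod6-Cre* mice, in which the same Cre line switches on a constitutively active MEK1, and were measured at P21 (mutants 1, 3 and 6 and controls 2, 4 and 5). Controls were littermates with or without Cre, and no source used here gives their *Map2k1* and *Map2k2* alleles. Interneurons, glia and vessels keep *Map2k1* in the loss-of-function cortex and were part of every sample.

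All values are log2 array values made by the authors with the RMA algorithm, so that 1 unit doubles the signal. Mutants were compared with controls of the same age with limma, and a gene is called where the two-sided p, adjusted over all genes by the Benjamini-Hochberg method, was under 0.05. P9 and P14 arrays were normalized apart (array medians of 6.13 to 6.18 and 7.91 to 8.08) and the P21 arrays are of another type, so levels were compared within an age only. Where P9 and P14 changes are set against each other below, the range of values also differed between the ages. The 25th percentiles were 4.45 to 4.50 at P9 and 6.63 to 6.89 at P14, and the effect of this on the size of changes was not tested. At P14 a pair of arrays, mice 1 and 2, deviated together from their group means (r = 0.761 over 19938 genes, which do not count as independent). Their 25th percentiles were 6.65 and 6.63, against 6.80 to 6.89 in mice 9 to 12. Each of these 2 sets of mice held both genotypes, and P14 changes are given within each. P14 mutants 9 and 11 were female by *Xist* and Y-linked genes, and the other mice of all ages were male. The cortical excitatory neuron markers *Slc17a7* and *Camk2a* had P14 control means of 12.39 and 13.20, far above the array medians, and the other markers are given after the results. *Map2k1* and *Map2k2* read over the whole gene had changes of at most 0.07 at P9 and P14 and do not check the genotypes, since the deletion takes a single exon of *Map2k1* and the *Map2k2* allele was not set against its probes. The paper read the probes of that exon alone and reported a significant reduction in the P14 mutants. At P21 the *Map2k1* value was 10.10 ± 0.02 (SD, n = 3) in controls against 10.33 ± 0.04 (SD, n = 3) in mutants (change 0.23, standard error 0.06, adjusted p = 0.310).

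The RNA of all 3 Spred genes was lower in *Map2k1/2;Neurod6-Cre* cortex at P14. *Spred2* fell 2.53-fold, *Spred1* 1.97-fold and *Spred3* 1.72-fold, and each was called. *Spry2* and *Spry3* had lower values in every mutant than in any control and were called only in the alternatives that took account of the sets of P14 mice, *Spry4* overlapped between the genotypes, and *Spry1* differed by 0.06. At P9 the fall of *Spred2* was called, and 5 others had an unadjusted p under 0.05 and lower means. At P21, in the gain-of-function model, no member was called and none had an unadjusted p under 0.05 over all mice.

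The 250 bases before the annotated start of the 3 Spred genes that fell at P14 are printed here with those of *Spry1*, the member whose change lay closest to 0 in loss-of-function cortex. They are RefSeq sequence of build GRCm38.p6, read 5′ to 3′ on the strand of the gene, from chr2:117120821-117121070 (plus strand), chr11:19924192-19924441 (plus strand), chr7:29168648-29168897 (minus strand) and chr3:37639697-37639946 (plus strand). Capitals mark matches on either strand to motifs of factors downstream of ERK, the ETS core CGGAAG and the CRE core TGACG.
Spred1: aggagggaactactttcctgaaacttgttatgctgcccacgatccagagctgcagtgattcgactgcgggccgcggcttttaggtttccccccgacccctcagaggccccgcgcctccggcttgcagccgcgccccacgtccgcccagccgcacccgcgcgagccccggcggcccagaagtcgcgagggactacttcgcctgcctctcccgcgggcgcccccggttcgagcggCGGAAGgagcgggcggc
Spred2: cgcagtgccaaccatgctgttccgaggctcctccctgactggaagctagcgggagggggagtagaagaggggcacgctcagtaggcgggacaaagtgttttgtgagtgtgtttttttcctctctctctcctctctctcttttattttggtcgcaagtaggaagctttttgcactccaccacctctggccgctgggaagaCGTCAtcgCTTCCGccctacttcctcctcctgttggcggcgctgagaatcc
Spred3: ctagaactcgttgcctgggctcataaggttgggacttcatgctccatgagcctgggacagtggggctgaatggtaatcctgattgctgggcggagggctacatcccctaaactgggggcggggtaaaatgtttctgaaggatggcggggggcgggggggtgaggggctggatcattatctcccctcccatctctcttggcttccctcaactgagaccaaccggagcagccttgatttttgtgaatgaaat
Spry1: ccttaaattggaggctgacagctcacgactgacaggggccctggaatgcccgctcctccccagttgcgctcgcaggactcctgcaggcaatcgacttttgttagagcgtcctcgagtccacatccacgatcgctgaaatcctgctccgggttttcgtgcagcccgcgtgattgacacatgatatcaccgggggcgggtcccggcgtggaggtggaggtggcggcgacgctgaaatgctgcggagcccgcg
*Spred1* held an ETS core from 17 to 12 bases before its start, and *Spred2* an ETS core from 43 to 38 and a CRE core from 51 to 47 bases before its start, which do not overlap. *Spred3* and *Spry1* held neither, and the same was true of *Spry2*, the fifth member with an entry in this table. Among 27025 mouse genes, 13.8% had an ETS core and 17.9% a CRE core in this window. The AP-1 site TGANTCA, present in 6.87% of all genes, and the EGR1 site GCGGGGGCG, present in 2.56%, were found in none of the 5. A match of letters is a description of the sequence and not evidence of a bound site.

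*Spred2* encodes a Spred protein found in many tissues. Its P14 log2 values were 10.66, 10.35 and 10.47 for controls 2, 10 and 12, against 9.22, 9.12 and 9.13 for mutants 1, 9 and 11. The mutants therefore lay in a narrow band, more than 1 unit below the lowest control. The change was -1.34 (95% confidence interval -1.57 to -1.10, standard error 0.10, adjusted p = 0.00266), which ranked 23 from the lowest among 19938 genes. It was -1.44 for mouse 1 minus mouse 2 and -1.29 within mice 9 to 12 (adjusted p = 7.35e-04). In bulk tissue, fewer cells of a type and less RNA per cell cannot be told apart. The other *Spred2* probe set had log2 values of 9.68, 9.37 and 9.16 in the controls and 8.13, 8.08 and 7.82 in the mutants, in the same order of mice as above, and a change of -1.39 (adjusted p = 0.0100).

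At P9 *Spred2* had log2 values of 8.71 and 8.61 for controls 2 and 3, against 7.46 and 7.61 for mutants 1 and 4. The mutants were again separate from the controls by about 1 unit. The change was -1.12 (standard error 0.10, adjusted p = 0.0468), a 2.18-fold fall, and with the other probe set it was -1.16 (adjusted p = 0.119). Leaving out any P9 mouse ended this call (adjusted p 0.0634 to 0.239), with changes between -1.20 and -1.05. At P14 the call held without each mouse in turn (adjusted p up to 0.0370).

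*Spred1*, the gene of Legius syndrome and the best studied partner of neurofibromin, had P14 log2 values of 10.55, 10.82 and 10.85 for controls 2, 10 and 12, against 9.64, 9.82 and 9.84 for mutants 1, 9 and 11. Both groups were tight, and the 2 did not overlap. Its change of -0.97 (95% confidence interval -1.24 to -0.71, standard error 0.11, adjusted p = 0.0138) was -0.91 for mouse 1 minus mouse 2 and -1.01 within mice 9 to 12 (adjusted p = 0.00126). Without control 10, control 12, mutant 9 or mutant 11 the adjusted p lay between 0.0666 and 0.0826. At P9 the values were 8.72 and 8.65 in controls 2 and 3 and 8.27 and 8.37 in mutants 1 and 4, which differ by -0.36 (adjusted p = 0.263, standard error 0.09). The P14 change was lower than the P9 change, by -0.61 (standard error 0.16, unadjusted p = 0.00325), and this difference did not pass the adjusted test (limma interaction term, adjusted p = 0.786).

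*Spred3*, which like the other Spred genes has an EVH1 and a Sprouty domain, had P14 log2 values of 9.09, 9.02 and 8.99 for controls 2, 10 and 12. The mutant values were 8.09, 8.38 and 8.28 in mice 1, 9 and 11. The controls agreed within 0.1 unit and every mutant lay below them. The change was -0.78 (95% confidence interval -1.02 to -0.55, standard error 0.10, adjusted p = 0.0180), with mouse 1 lying 1 unit below mouse 2 and a change of -0.68 within mice 9 to 12 (adjusted p = 0.00569). Its call held without mutant 1 (adjusted p = 0.0174) and was lost without any other P14 mouse (adjusted p 0.0513 to 0.118). At P9 the values were 7.89 and 7.42 in the controls and 6.52 and 6.42 in the mutants. The P9 change of -1.18 was the lowest point estimate of the 7, with controls that differed by nearly 0.5 units between themselves (standard error 0.16, adjusted p = 0.115).

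**Figure D1:**
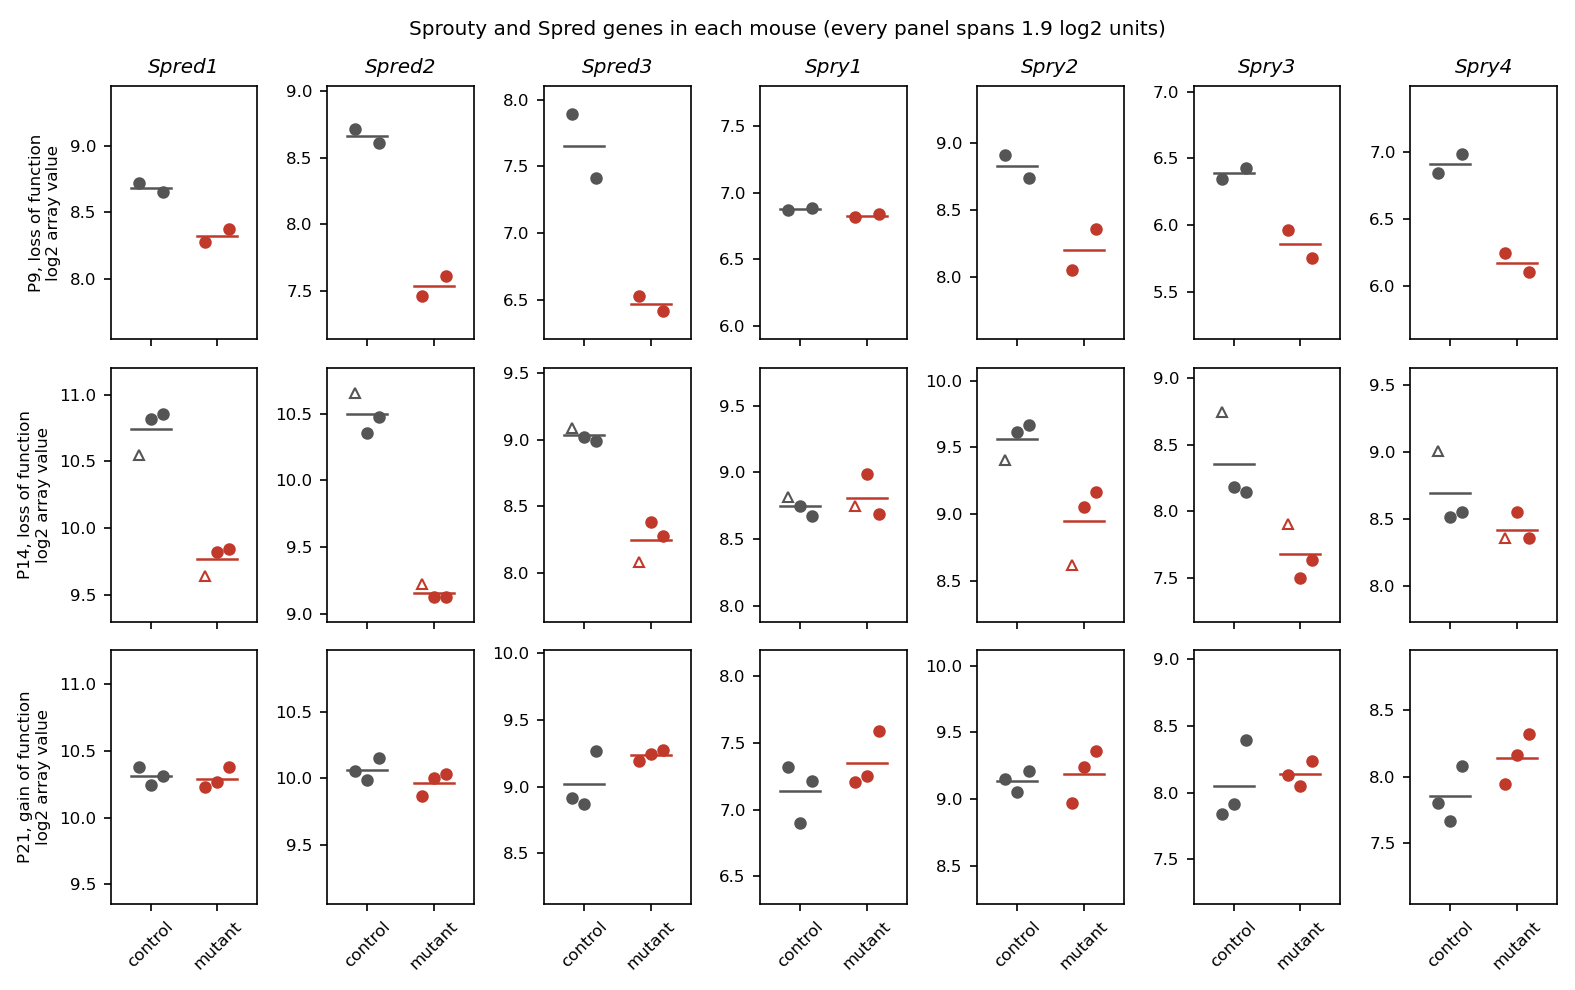
Log2 array value (y axis) of each Sprouty and Spred gene in each mouse, with controls in grey and mutants in red, at P9, P14 and P21 (rows). Lines are group means, and open triangles are P14 mice 1 and 2, whose arrays stood apart; the Spred values of mutants lie below those of controls at P9 and P14 and overlap with them at P21.

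In the reported fit of each age, no Sprouty gene was called at either P9 or P14. Some alternatives did call Sprouty genes. At P9 *Spry2* and *Spry4* were called with trended and robust moderation of the variance (adjusted p = 0.0488 and 0.0245). *Spry2*, a broadly used inhibitor of receptor signalling, had P14 log2 values of 9.41, 9.62 and 9.67 for controls 2, 10 and 12. In mutant mice 1, 9 and 11 it had 8.62, 9.05 and 9.16. All mutants lay below all controls, with mutant 1 the lowest. The change of -0.62 (standard error 0.15, 95% confidence interval -0.98 to -0.26) had an unadjusted p of 0.00438 and did not pass the adjusted test (adjusted p = 0.155). With mice 1 and 2 as a block *Spry2* was called (standard error 0.07, adjusted p = 0.00287), as it was within mice 9 to 12 (change -0.53, adjusted p = 0.0142). At P9 its values were 8.91 and 8.74 in controls and 8.05 and 8.36 in mutants, which differ by -0.62 (adjusted p = 0.209, standard error 0.13), close to the P14 value in other mice.

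*Spry3*, a further gene with the Sprouty domain, had P14 log2 values of 8.74, 8.18 and 8.14 for controls 2, 10 and 12, against 7.90, 7.50 and 7.64 for mutants 1, 9 and 11. The mice of both genotypes from the set of mice 1 and 2 were the highest of their groups, and the genotypes did not overlap. Its change of -0.67 (standard error 0.18, adjusted p = 0.200) was -0.84 for mouse 1 minus mouse 2 and -0.59 within mice 9 to 12 (adjusted p = 0.0111), and the gene was called with the sets as a block (adjusted p = 0.00204). At P9 the values were 6.35 and 6.43 in controls and 5.96 and 5.76 in mutants (change -0.53, standard error 0.10, adjusted p = 0.182).

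*Spry4*, which encodes a Sprouty protein induced by fibroblast and vascular growth factors, had unlike changes in the 2 sets of P14 arrays, a difference that was not tested. Its log2 values were 9.01, 8.51 and 8.55 for controls 2, 10 and 12, against 8.36, 8.55 and 8.35 for mutants 1, 9 and 11. Mouse 1 lay 0.65 below mouse 2, whereas within mice 9 to 12 the change was -0.08 (adjusted p = 0.614). Over all mice it was -0.27 (95% confidence interval -0.61 to 0.07, standard error 0.15, adjusted p = 0.771). At P9 *Spry4* had 6.84 and 6.99 in controls and 6.24 and 6.11 in mutants. The P9 groups were well apart, and the change of -0.74 (standard error 0.10, unadjusted p = 3.11e-04, adjusted p = 0.114) was called after a filter on dim genes (adjusted p = 0.0464). The difference between the P14 and P9 changes was 0.47 (standard error 0.21, unadjusted p = 0.0470, adjusted p = 1.00).

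*Spry1*, a Sprouty gene known for its role in kidney and muscle stem cells, had confidence intervals that included 0 in loss-of-function cortex. Its P14 log2 values were 8.82, 8.75 and 8.67 for controls 2, 10 and 12, against 8.74, 8.99 and 8.69 for mutants 1, 9 and 11, and the groups overlapped. The change was 0.06 with a 95% confidence interval of -0.18 to 0.31 (adjusted p = 0.995), so that a fall of the size seen for *Spred1*, *Spred2* or *Spred3* lies outside it. At P9 the values were 6.87 and 6.88 in controls and 6.81 and 6.84 in mutants, a change of -0.05 (95% confidence interval -0.25 to 0.15, adjusted p = 0.872).

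**Figure D2:**
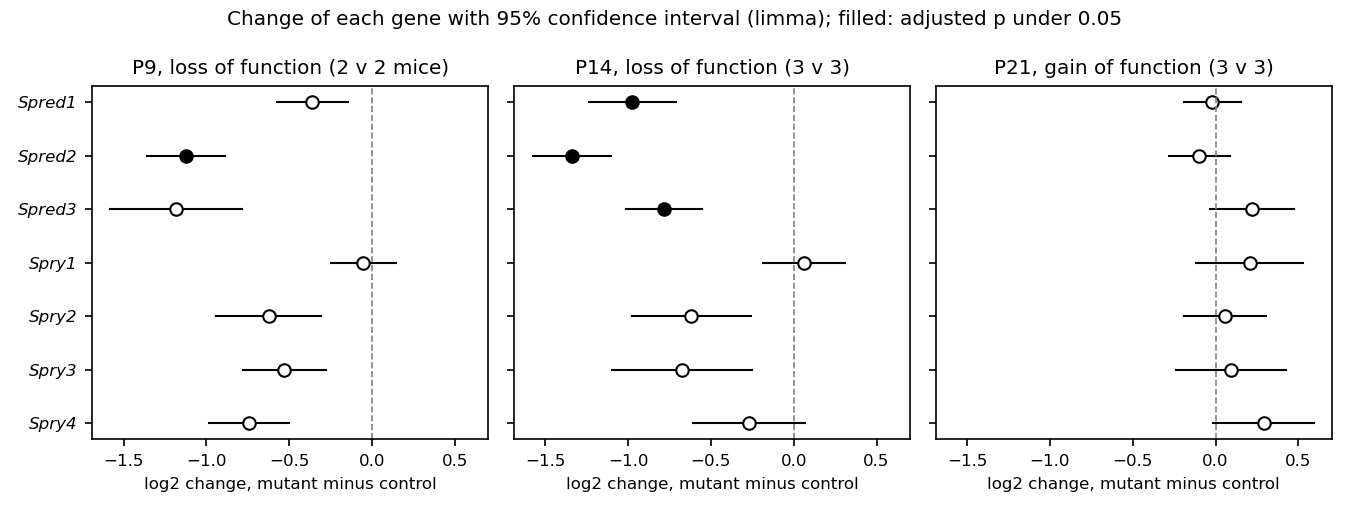
Log2 change, mutant minus control (x axis), of each gene at P9, P14 and P21, with the 95% confidence interval from limma. Filled points were called at an adjusted p under 0.05, which were *Spred2* at P9 and *Spred1*, *Spred2* and *Spred3* at P14. The interval of *Spry1* includes 0 at every age, that of *Spry4* at P14, and that of every gene at P21.

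Counted over the family, 3 of 7 members were called lower at P14 and none higher, against 0.697% of all genes called lower and 0.391% called higher. With mice 1 and 2 as a block 5 of 7 were called lower (*Spred1*, *Spred2*, *Spred3*, *Spry2* and *Spry3*), against 3.65% of all genes, and within mice 9 to 12 the same 5, against 2.78%. Within mice 9 to 12 both mutants were female and both controls male, so genotype and sex cannot be told apart there. Mice 1 and 2 were both male, and all 7 genes were lower in mutant 1 than in control 2 (*Spry4* -0.65, *Spry1* -0.07). This sets 1 mouse against 1, and the share of all genes lower in that pair was not counted. Over all P14 mice, no mutant overlapped a control in the 5 genes called with the block, all lower, where 6.52% of all genes had every mutant below every control. At P9, 1 of 7 was called lower, against 0.0502% of all genes, and 6 had an unadjusted p under 0.05 and a lower mean, against 5.21%. Every P9 mutant lay below both controls in all 7 genes, which held for 19.7% of all genes. The median change of the family was -0.62 at P9 and -0.67 at P14, beside medians over all genes of 0.01 and 0.02. Averaged over the 7 genes and set against the mean of the controls, the P14 mutants lay between -0.72 and -0.60 and the P14 controls between -0.05 and 0.09, and at P9 the mutants lay between -0.67 and -0.65 and the controls at -0.04 and 0.04. The P9 and P14 changes differed at an unadjusted p under 0.05 for 2 of 7 members, *Spred1* and *Spry4*, against 4.26% of all genes (849), and limma's interaction term called 0 of the 19938 genes (0%). At the thresholds of the study's methods, an unadjusted p under 0.05 with more than 1.5-fold between the means, 4 members were lower at P9 (*Spry2*, *Spry4*, *Spred2* and *Spred3*), against 0.607% of all genes, and 5 at P14 (*Spry2*, *Spry3* and the 3 Spred genes), against 1.08%.

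With sex as a covariate the P14 comparison rests on 1 mutant, since mutant 1 was the only male mutant and all controls were male. It sets that mouse, whose array stood apart with that of mouse 2, against the 3 controls, and it assumes that a lone mouse varies like the others and leaves the sets of arrays out. The differences were -1.28 for *Spred2* (adjusted p = 0.0271), -0.95 for *Spred3* (adjusted p = 0.0368), -1.10 for *Spred1* (adjusted p = 0.0585), -0.94 for *Spry2* (adjusted p = 0.0744), -0.45 for *Spry3* (adjusted p = 0.643) and -0.34 for *Spry4* (adjusted p = 0.667). The adjusted p was under 0.05 for 2 of 7 members, both lower, and for 0.145% of all genes in that direction.

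**Figure D3:**
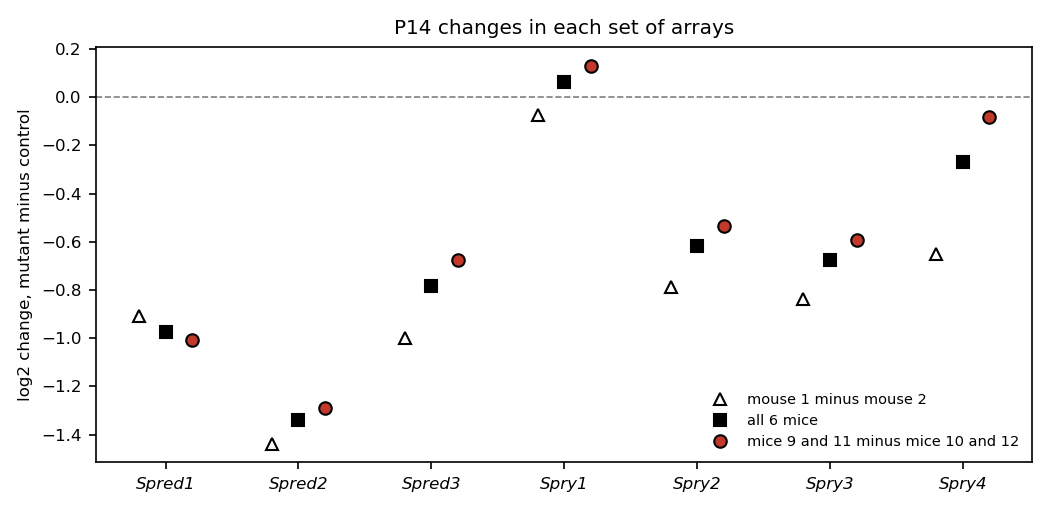
Log2 change at P14, mutant minus control (y axis), of each gene for mouse 1 minus mouse 2 (open triangles), all 6 mice (squares) and mutants 9 and 11 minus controls 10 and 12 (red circles). *Spred1*, *Spred2*, *Spred3*, *Spry2* and *Spry3* are below 0 in both sets, while *Spry4* goes from -0.65 to -0.08 and *Spry1* from -0.07 to 0.13.

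In the gain-of-function cortex at P21 no member of the family was called. *Spry4* had the highest change, with log2 values of 7.80, 7.67 and 8.08 for controls 2, 4 and 5, against 7.94, 8.16 and 8.32 for mutants 1, 3 and 6. The groups overlapped, and the change of 0.29 had a 95% confidence interval of -0.01 to 0.59 (adjusted p = 0.503). For *Spred3* the values were 8.91, 8.87 and 9.27 in controls and 9.19, 9.24 and 9.27 in mutants. Control 5 lay among the mutants, and the change was 0.22 (95% confidence interval -0.03 to 0.47, adjusted p = 0.541). Without control 5 it was 0.34 (unadjusted p = 0.00282, adjusted p = 0.281), that of *Spry4* 0.40 (adjusted p = 0.373) and that of *Spry3* 0.26 (adjusted p = 0.403). Of the fits with 1 mouse left out, this one gave the highest change of each of these genes. The lowest were 0.15 for *Spred3*, 0.20 for *Spry4* and -0.01 for *Spry3*. *Spred1* and *Spred2* had changes of -0.02 (95% confidence interval -0.19 to 0.15) and -0.10 (-0.28 to 0.08), intervals that leave out a rise as large as their fall at P14. The changes of *Spry1*, *Spry2* and *Spry3* were 0.21, 0.05 and 0.09, none called. Of the 22180 genes, 0 were called at P21 (0%), and 2313 (10.4%) had an unadjusted p under 0.05, among them none of the 7 over all 6 mice. At the study's thresholds 0.604% of all genes and 0 of the 7 passed, and all 7 overlapped between genotypes, where 15.8% of all genes did not. The loss and gain models were measured at different ages on different arrays, and the difference between them was not tested.

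The proteins that Sprouty and Spred bind were listed to see whether their RNA moved as well. None of the 16 measured partners was called at any age, with a median change at P14 of -0.03. Of all genes, 0.697% were called lower and 0.391% higher at P14, and 10 and 5 of 19938 at P9. At P21 the share was 0%, so the lack of calls in a list of this length is near that of all genes. *Nf1* had P14 means of 10.97 in controls and 10.68 in mutants, a change of -0.29 (unadjusted p = 0.0398, adjusted p = 0.533). The differences were 0.21 for *Cblb*, a ubiquitin ligase (adjusted p = 0.626), -0.10 for its relative *Cbl* (adjusted p = 0.978), 0.25 for the ubiquitin ligase *Siah2* at P9 (adjusted p = 0.380) and -0.21 for the Ras activator *Sos1* at P21 (adjusted p = 0.476).

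Receptors and ligands upstream of Ras had P14 medians near 0, with 1 call among them. None of 16 receptors was called, against 0.697% of all genes called lower and 0.391% higher, and the median change was 0.02. The hepatocyte growth factor receptor *Met* had the lowest change, -0.94 (standard error 0.23, adjusted p = 0.140), and the vascular receptors *Flt1* and *Kdr* had changes of -0.28 (adjusted p = 0.324) and -0.31 (adjusted p = 0.585). Of 18 ligands 1 was called lower, against 0.697% of all genes, which was *Kitl*, which encodes the ligand of the receptor Kit. Its mean fell by 0.72, from 9.49 to 8.77 (adjusted p = 0.0403). The change of *Hgf*, the ligand of Met, was 0.64 (adjusted p = 0.0779) and that of the neurotrophin *Bdnf* -0.42 (adjusted p = 0.138). At P9 and P21 no receptor and no ligand was called, where 0.0502% of all genes were called lower at P9 and 0% called at P21. The lowest p of the ligands at P21 was that of *Gdnf* (0.46, adjusted p = 0.254).

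*Dusp6* and *Dusp1*, other feedback inhibitors of ERK signalling, fell at P14. Of 14 such genes measured, 2 were called lower, against 0.697% of all genes, and none higher, against 0.391%, with a median change of -0.09. *Dusp6*, the cytoplasmic phosphatase of ERK, fell by 1.66 (standard error 0.18, adjusted p = 0.0111) and *Dusp1*, a nuclear phosphatase of MAP kinases, by 1.53 (standard error 0.15, adjusted p = 0.00765). *Dusp5* and *Dusp4*, also nuclear, had changes of -0.47 (adjusted p = 0.0955) and -0.63 (adjusted p = 0.0991). *Rasal1*, a Ras GTPase-activating protein, had the lowest p of the list at P21, with a change of 0.39 (adjusted p = 0.212).

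Genes that growth factors induce together with Sprouty genes numbered 16, and 5 of them were called lower at P14, against 0.697% of all genes, and none higher, with a median change of -0.21. They were the ETS factors *Etv5* (-1.06, adjusted p = 0.00469) and *Etv1* (-0.76, adjusted p = 0.0282), *Dusp6*, which is in both lists, and the immediate early genes *Fos* (-1.14, adjusted p = 0.0294) and *Egr1* (-0.71, adjusted p = 0.0490). At P9 none was called (*Etv1* -0.88, adjusted p = 0.0715), where 0.0502% of all genes were called lower. At P21 the difference of *Egr1* was -0.31 (adjusted p = 0.245). Among 8 other genes whose proteins share the EVH1 domain with Spred, 1 was called lower at P14, against 0.697% of all genes. This was *Homer1*, a scaffold of glutamate receptors (-0.97, standard error 0.12, adjusted p = 0.0169). Its relatives *Homer2* (-0.24, adjusted p = 0.633) and *Vasp* (0.17, adjusted p = 0.937) were not called, nor was *Wasl* at P9 (0.21, adjusted p = 0.466). In the gain-of-function mutants at P21 *Homer1* was also lower, without overlap and not called (-0.36, adjusted p = 0.258), where 15.8% of all genes did not overlap.

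**Figure D4:**
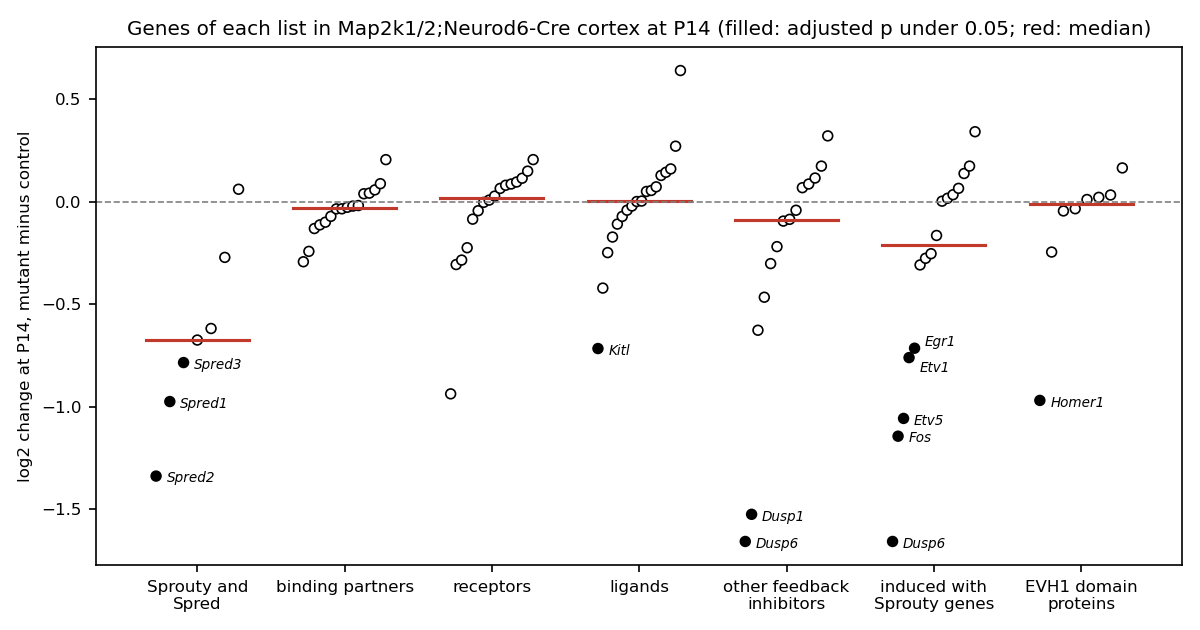
Log2 change at P14, mutant minus control (y axis), of every measured gene of the family and of 6 related lists, sorted within each list; filled points were called and named, and red lines are medians. The median is -0.67 for the Sprouty and Spred genes and between -0.21 and 0.02 for the other lists.

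The values of the called members ran most closely with genes of varied function over the 10 loss-of-function arrays, after the mean of each age was subtracted. For *Spred2* these were *R3hdm2* (r = 0.994), *Tmem196* (r = 0.991) and the neuronal adaptor *Shc3* (r = 0.988), whose P14 changes were -0.60, -1.91 and -1.70. For *Spred1* they were *Ttc39b* (r = 0.987), *Efr3a* (r = 0.985) and *Arhgap26* (r = 0.981), and for *Spred3* the palmitoyltransferase *Zdhhc5* (r = 0.976), the transporter *Slco3a1* (r = 0.975) and the opsin *Opn3* (r = 0.973). The genotype difference is part of each correlation, since mutants and controls are pooled in it. Between members, *Spred2* and *Spred3* had r = 0.921, *Spred1* and *Spred2* r = 0.902 and *Spred1* and *Spry2* r = 0.887, while *Spry1* had r between -0.25 and 0.33 with the other 6.

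Markers of the cell types in the cortex gave the following values beside these changes. Of 7 excitatory neuron markers 3 had lower means at P14 at an unadjusted p under 0.05, against 4.38% of all genes, and 1 of these was called. They were *Neurod6* (-3.07, adjusted p = 0.00765), from whose locus the Cre is expressed, *Slc17a6*, the vesicular glutamate transporter VGLUT2 (-0.79, adjusted p = 0.365), and the deep-layer transcription factor *Tbr1* (-0.34, adjusted p = 0.301). The same 3 were lower at P9 at an unadjusted p under 0.05 (-1.80, -0.94 and -0.25), against 5.21% of all genes, and none was called there. *Slc17a7*, *Camk2a*, *Neurod2* and *Nrgn* had P14 changes between -0.06 and 0.10. The mean of the 7, relative to the controls' average, was -0.65 to -0.48 in P14 mutants and -0.14 to 0.19 in P14 controls, and -0.42 to -0.31 and -0.02 to 0.02 at P9. This mean includes the large change of *Neurod6*, and the median change of the 7 was -0.06 at P14 and 0.05 at P9. None of the 8 interneuron, 8 astrocyte, 7 oligodendrocyte precursor, 7 oligodendrocyte, 8 microglia, 8 endothelial and pericyte and 5 meningeal and blood markers (4 at P21) was called at any age. Few of all genes were called, 0.697% lower and 0.391% higher at P14, 0.0502% lower at P9 and 0% at P21. The lack of calls among these markers therefore does not show that the cell types were unchanged. At P14 the mean of the endothelial and pericyte markers, relative to the controls' average, was -0.42 to -0.04 in mutants and -0.15 to 0.27 in controls, and 3 of the 8 had an unadjusted p under 0.05, all lower, where 4.38% of all genes were. At P9 the mean of the astrocyte markers was 0.17 to 0.19 in mutants and -0.01 to 0.01 in controls, with 4 of 8 higher at an unadjusted p under 0.05, where 5.32% of all genes were. At P21 the mean of the oligodendrocyte markers was -0.47 to -0.18 in *ca-Map2k1;Neurod6-Cre* mutants and -0.24 to 0.13 in controls, with 4 of 7 lower at an unadjusted p under 0.05, where 5.31% of all genes were. No list held markers chosen for layer 5. The paper names *Etv1* and *Opn3* among layer 5 projection neuron genes that were lower in the loss-of-function mutants at P9 or P14. It also reports fewer CTIP2+ layer 5 neurons in their motor and sensory cortex at P14. The part of these markers, or of fewer layer 5 neurons, in the changes of the Sprouty and Spred genes was not tested.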

How the data were processed

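The authors hybridized cortical RNA to Affymetrix gene arrays, 1 per mouse, and deposited log2 values computed by RMA (background adjustment, quantile normalization and median polish of each probe set). The submitters' processing notes name Partek 6. Neither the genome build nor the annotation version is known (not given in the sources used here). With arrays there is no depth to give, and precision rests on how many arrays there were. Probe sets with 1 gene symbol in the platform annotation were kept (21789 of 35557 at P9 and P14, and 23521 of 41345 at P21), and the brightest represented each gene.

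Mutants were compared with controls in a separate model per age (limma 3.58.1, R 4.3.3, lmFit then eBayes, two-sided), and p-values were adjusted across the whole table (Benjamini-Hochberg). This test gave each adjusted p for which no other fit is named. The fit was tested on simulated data. No source assigns mice to litters, and labels do not say that samples share more than age and genotype. Litter was therefore not in the model, and p-values rest on the spread between these mice, with any differences between litters included in it. The members, the lists and the arrays doubted were chosen with earlier results of these data known. Genes named outside the family were those called at any age in a list, the 3 of lowest p at P14 and the 1 of lowest p at P9 and at P21, with some values added after they were seen. Listed genes that had no such probe set were not analysed here. Sequences are from RefSeq, matched by symbol for 5 of the 7 members.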

Additional observations from a re-analysis of the deposited data

How the results depend on the processing

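All 7 members kept their direction at P9 under the 13 alternatives run, as did *Spred1*, *Spred2*, *Spred3*, *Spry2*, *Spry3* and *Spry4* at P14 under 18. Many of these alternatives alter only the error estimate or the genes kept, so they could not move the change itself. Leaving out a P9 mouse could not reverse a direction either, since every P9 mutant lay below both controls in all 7 genes. The exceptions were changes near 0: *Spry1* at P14, which was -0.0024 with sex as a covariate and -0.029 to 0.12 with 1 mouse left out, and at P21 *Spry2* (-0.028 to 0.16), *Spry3* (-0.012 to 0.26) and *Spred1* (-0.061 to 0.014) with 1 mouse left out. The count of members called lower at P14, 3 in the fit reported, was 0 with no moderation of the variance, 5 with the block for mice 1 and 2, 5 when only mice 9 to 12 were used, 5 at the thresholds of the methods given above and 1 to 3 with 1 mouse left out, being 1 without control 10, control 12, mutant 9 or mutant 11. At P9 the count of 1 became 2 with the filter on dim genes, 0 with no moderation, 4 with trended and robust moderation, 0 with probe sets averaged per gene, 2 with P9 and P14 fitted jointly, 4 at the thresholds of the methods and 0 with the other *Spred2* probe set, an alternative added after the data were seen. It was 0 to 1 with 1 mouse left out, and 0 without control 2, mutant 1 or mutant 4. Quantile normalization and centring on the median of each array left these counts as they were. All values of the 7 genes lay above the 25th percentile of their array. The mice came from 2 litters (P9) and 3 litters (P14) per the methods, which do not say which mice shared one. Neighbouring mouse numbers deviated together at P14 (r = 0.761, 0.572 and 0.438 for mice 1 and 2, 9 and 10, and 11 and 12), but so did mice 10 and 11 (r = 0.536), and at P9 the pairs had r = -0.0738. Deviations sum to 0 within each group, so these r values depend on each other and do not test whether neighbouring numbers share a litter. With neighbouring numbers as a replicate block, added after the data were seen, 5 members were called lower at P14, 2 at P9 (*Spred2* and *Spred3*) and 0 at P21.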

Other observations

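*Met*, which encodes the receptor of hepatocyte growth factor, had lower means in mutants of the loss model and a higher mean in those of the gain model. Its change was -0.59 at P9 (standard error 0.11, adjusted p = 0.176), -0.94 at P14 (standard error 0.23, adjusted p = 0.140) and 0.83 at P21 (standard error 0.18, adjusted p = 0.245), and no mutant overlapped a control at any of the 3 ages. Every mutant lay below every control for 19.7% of all genes at P9 and 6.52% at P14, and 15.8% did not overlap at P21. It was not called at any age, and the difference between the models was not tested. *Hgf*, the gene of its ligand, had changes of 0.52 at P9 (adjusted p = 0.249) and 0.64 at P14 (adjusted p = 0.0779).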
